A study of Mus musculus with 2 samples.

Results

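The 10 genes described here encode the building blocks of elastic fibres and the enzymes that crosslink them: the elastic core protein elastin (*Eln*), the fibrillins *Fbn1* and *Fbn2*, the microfibril-associated glycoprotein *Mfap5*, the fibulins *Fbln1*, *Fbln2* and *Fbln5*, and the lysyl oxidases *Lox*, *Loxl1* and *Loxl2*. They were chosen by symbol from the 22156 genes of the expression table, and each of the 10 symbols was found once. Gene expression was measured by RNA sequencing in primary chondrocytes, the cells of cartilage, grown as a monolayer, with 1 library for the control genotype and 1 for the *Myl3*-KO genotype. The knockout carries a *Col2a1*-driven Cre recombinase, active in cartilage cells, that deletes floxed *Myl3*, the gene of a myosin light chain. The labels give rib cartilage as the source, while the study's methods for chondrocyte cultures name articular cartilage of newborn mice as well. The sample labels call the control genotype wild type, whereas the study's methods describe controls as *Myl3* flox/flox littermates without Cre. All mice were on the C57BL/6 J background, and neither genotype was treated. How many newborn mice went into each library, and of which sex, is not stated in the sources used here.

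Elastic fibres give tissues stretch and recoil. Cells secrete fibrillins, which assemble into microfibrils, and tropoelastin is laid down on this scaffold with the help of fibulins before lysyl oxidases, which need copper, join its lysine residues. Microfibrils also occur without elastin, in cartilage and its perichondrium among other tissues, where they hold latent TGF-beta and bone morphogenetic proteins. Lysyl oxidases crosslink collagens as well as elastin, so they also serve matrices that hold no elastic fibres.

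The total of the expected counts, the authors' estimates of the reads of each gene, came to 17612434.91 for the control and 13477976.98 for *Myl3*-KO. *Myl3* itself had 0 counts in both, so neither its presence in the control nor its deletion could be seen, and it gave no check of the labels. Of 10 chondrocyte markers, 5 had 0 counts in both libraries, among them *Acan*, *Matn1* and *Hapln1*, and *Col2a1* had 30 and 27 counts. *Sox9*, the transcription factor of cartilage cells, had 866 and 480 counts (log2 ratio -0.47), and *Col11a2*, a cartilage collagen, had 293 and 395 (log2 ratio 0.82, called higher by the rule given below). The chondrocyte markers summed to 67.6 and 67.1 CPM (counts scaled to a library total of 1000000), and since most of them were at or near 0 the cell type given by the labels is not established. Of 8 fibroblast and perichondrium markers, *Col1a1*, *Col1a2* and *Col3a1* were abundant, *Col1a2* at 211652 and 189213 counts, while *Thy1* was at 0 and *Dpt*, *Pi16* and *Ly6a* had at most 5 counts in a library. *Pdgfra*, also in that list, had 120 and 140 counts and was called higher (log2 ratio 0.61, interval 0.25 to 0.97), in the same direction as *Fbn1*, and its part in the results was not tested. The 3 tendon markers summed to 31.8 and 32.2 CPM, with *Scx* at 365 and 306 counts, *Mkx* at 195 and 128, and *Tnmd* at 0. Lower sums were found for other cell types, with 10.4 and 9.79 CPM for 6 smooth muscle markers, 1.88 and 2.08 CPM for 4 immune markers and 0.397 and 0.890 CPM for 4 endothelial markers. The 6 markers of muscle precursors summed to 4.26 and 21.5 CPM, nearly all of it *Cdh15* with 73 and 290 counts, while *Pax7*, *Myf5*, *Myod1* and *Myog* were at 0, and the part of such cells in the results was not tested. In such a culture, fewer cells of a type and less RNA per cell cannot be told apart.

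Levels of different genes were compared by FPKM, the authors' count scaled by gene length and sequencing depth. Between the libraries, counts divided by the library total were compared as a log2 ratio of *Myl3*-KO over control, with a 95% Clopper-Pearson interval that covers counting error only. With 1 library per genotype there is no replicate check and no test of the genotype. The 12431 genes whose counts summed to 10 or more were assessed. Calls of higher or lower needed a ratio of at least 1.5-fold together with an interval that left out a log2 ratio of 0. By this rule 3.64% of the genes assessed were called higher and 1.12% lower. By the interval alone, 22.2% were higher and 20.1% lower, 42.4% in either direction, so an interval that leaves out 0 was common at this depth. With other limits the shares called higher and lower were 9.47% and 5.44% (log2 ratio of at least 0.32), 1.38% and 0.499% (2-fold) and 0.274% and 0.113% (4-fold).

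Of the 10 genes, 4 had upstream windows in the RefSeq promoter table (GRCm38.p6), namely *Fbn1*, *Fbln1*, *Fbln2* and *Fbln5*. Stretches of 3 of them are shown because these genes stand for the patterns found: *Fbn1* was the only called gene of the 10, *Fbln5* had equal levels in both libraries and *Fbln1* had no counts. Sequences run 5′ to 3′ on the strand of the gene. Capitals mark motifs out of 4 that were searched on both strands in the 250 bases before each start: ACGTG (the core of the low-oxygen response element), GTGGGAA (bound by RBPJ, the DNA-binding partner of Notch), CAGACA (a SMAD motif) and TATAAA (the TATA box). For *Fbn1*, only 30 bases around its motif are given, since GENCODE counts all 250 bases of its window as exon.
*Fbn1*, chr2:125506440-125506469, minus strand: tacttgaagagGTGGGAAaggagggggccg
*Fbln1*, chr15:85205699-85205948, plus strand: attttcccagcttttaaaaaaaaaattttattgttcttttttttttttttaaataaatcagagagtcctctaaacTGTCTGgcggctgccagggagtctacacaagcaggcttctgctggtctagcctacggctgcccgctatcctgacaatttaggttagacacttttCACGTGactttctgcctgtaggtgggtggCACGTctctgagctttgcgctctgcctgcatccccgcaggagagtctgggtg
*Fbln5*, chr12:101819120-101819369, minus strand: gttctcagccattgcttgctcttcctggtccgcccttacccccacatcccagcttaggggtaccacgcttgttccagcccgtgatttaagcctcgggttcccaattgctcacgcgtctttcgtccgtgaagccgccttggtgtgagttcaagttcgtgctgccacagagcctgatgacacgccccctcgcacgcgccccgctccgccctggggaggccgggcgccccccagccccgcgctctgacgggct

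The *Fbn1* window held GTGGGAA, beginning 20 bases before the start, which was found in 5.42% of the 32851 windows of the table. Of the 6 windows of these genes, it was the only one with this motif. Both windows of *Fbln1* held ACGTG, found in 16.6% of all windows, 2 of its copies overlapping as CACGTG, and CAGACA, found in 17.1%. These *Fbln1* windows overlap each other and hold the same copies of the motifs. The window of *Fbln5* shown held none of the 4 motifs, its other window held CAGACA, beginning 15 bases before the start, and TATAAA, found in 12.4% of all windows, was in none of the 6. GC content was 59.2% in the *Fbn1* window, 46.4% in that of *Fbln1* and 65.2% in that of *Fbln5*, against a median of 52.4% over all windows. These matches describe letters and not binding.

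The genes fell into those with clear levels and those near or at 0. *Lox* stood highest, at 119.54 FPKM (control) and 99.57 FPKM (*Myl3*-KO), and 5.47% of the genes assessed had a higher mean. *Fbn1* and *Fbln5* followed, at 18.85 and 20.54 FPKM in the control, and their order turned in *Myl3*-KO, at 29.94 and 20.64. *Loxl1* lay at 6.87 and 7.70 FPKM. The other 6 were below 1 FPKM in both libraries. *Fbln2* had 0.48 and 0.66 FPKM, *Mfap5* 0.26 and 0.12, *Fbn2* 0.05 and 0.03, and *Loxl2* 0.04 and 0.03. *Eln* and *Fbln1* were listed at 0 in both. With 1 library each, no spread over samples can set neighbours in this order apart. Counts were found in both libraries for 8 of 8 housekeeping genes, but at 9.35 CPM or more these cannot test whether the zeros are true. The lowest were *Gapdh*, at 17.4 and 9.94 CPM and called lower (log2 ratio -0.81), and *Ppia*, at 13.4 and 9.35 CPM.

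**Figure D1:**
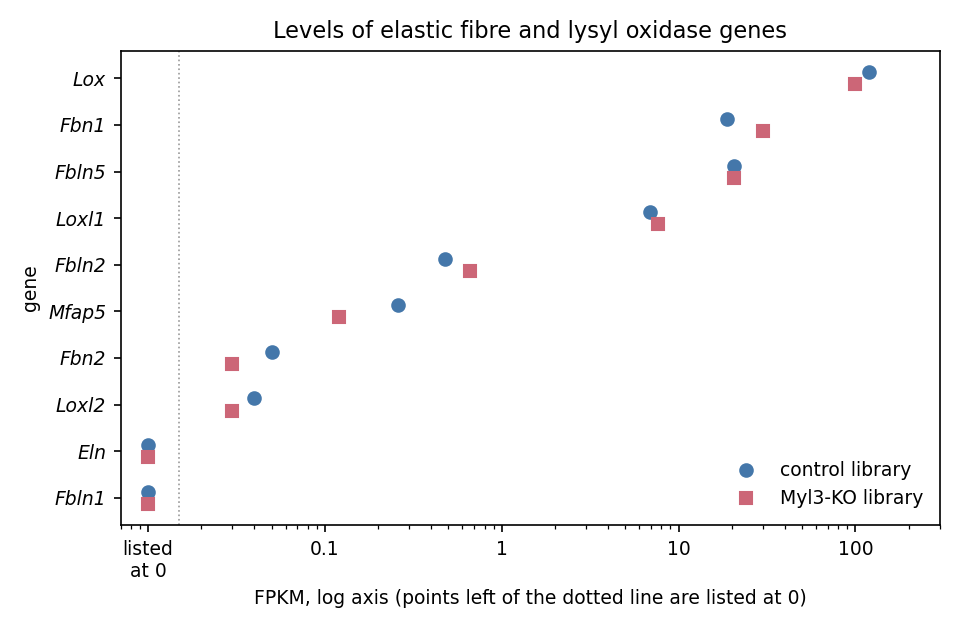
FPKM of the 10 genes on a log axis, as circles for the control library and squares for the Myl3-KO library, with 1 library per genotype and no error bars. Lox lies near 100 FPKM, Fbn1 is the gene with clear levels whose points stand furthest apart (18.85 and 29.94), and Eln and Fbln1 are listed at 0 in both.

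The fibrillin level in these cells was nearly all *Fbn1*, and it was higher in *Myl3*-KO. *Fbn1* (ENSMUSG00000027204, GRCm38 chromosome 2 from 125300594 to 125507993), the gene of the main microfibril protein, had 3272.9 control and 3973.8 *Myl3*-KO counts, which is 186 against 295 CPM. The intervals of these levels, 180 to 192 and 286 to 304 CPM, did not overlap, but they cover counting error only. A ratio interval that left out 0 was found for 42.4% of all genes assessed. The difference for *Fbn1* was 1.59-fold, a log2 ratio of 0.67 (95% interval 0.60 to 0.73), just beyond the 1.5-fold limit. *Fbn1* was thus the only gene called of the 6 that could be assessed, beside 3.64% called higher over all genes, and 4.83% of all genes assessed had a higher ratio. Among the 6385 genes with at least 1000 counts, where counting error is small, 0.282% had a higher ratio and 0.689% were called higher.

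The *Fbn1* value carries some limits. *Gm9913*, on the opposite strand, overlaps its exons and shares 20.2% of the 31-base words of its longest transcript, but held only 12.1 and 19.2 counts. Over all genes, ratios were higher at higher GC content and in longer transcripts, and after the median of the genes of like GC content and length was subtracted, *Fbn1* was 1.40-fold higher (log2 ratio 0.49, interval 0.42 to 0.55) and no longer called, at a background of 2.86% called higher. After that subtraction 0.706% of the genes with at least 1000 counts stood higher.

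The other microfibril genes were barely counted. *Fbn2*, a fibrillin of the developing embryo, had 10 control and 4 *Myl3*-KO counts, a log2 ratio of -0.94 whose interval ran from -3.06 to 0.86. *Fbn1* made up 99.7% of the fibrillin FPKM in the control and 99.9% in *Myl3*-KO. *Mfap5* (chromosome 6 from 122505845 to 122529290), whose product binds fibrillins, had 7 and 2 counts, too few to be assessed, with a log2 ratio of -1.42 and an interval of -4.72 to 0.97. *Mfap2* and *Mfap4*, which encode other microfibril-associated proteins and were added after their values were seen, had 0 and 1 counts and 15 and 8 counts. The 3 genes together reached 0.75 FPKM (control) and 0.53 FPKM (*Myl3*-KO), against 18.85 and 29.94 for *Fbn1*.

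Elastin RNA was not detected in either library. *Eln* (ENSMUSG00000029675, chromosome 5 from 134702593 to 134747323) had 0 control and 0 *Myl3*-KO counts. The floor, set at 3 counts, corresponds to 0.170 CPM (control) and 0.223 CPM (*Myl3*-KO), and the exact 95% Poisson intervals of the levels reach up to 0.209 and 0.274 CPM. Of the 31-base words of its longest transcript, 3.56% also occur in another gene. Why its count was 0 was not tested. *Fbln1* (ENSMUSG00000006369, chromosome 15 from 85205949 to 85286535), whose upstream sequence is shown above and whose product lies within elastic fibres and basement membranes, also had 0 counts in both. None of the words of its longest transcript occur in another gene. No fold can be given for either gene.

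The fibulins that were present did not differ between the libraries beyond counting error. *Fbln5* (ENSMUSG00000021186, chromosome 12 from 101746565 to 101819055), which brings tropoelastin to the microfibril and binds lysyl oxidases, had 964 control and 737 *Myl3*-KO counts. Its level was 54.7 CPM in both, a ratio of 0.999, with a log2 interval of -0.14 to 0.14 that leaves room for a change of at most 1.10-fold by counting error. *Fbln2* (chromosome 6 from 91212455 to 91272540), a large fibulin found in cartilage and vessel walls, had 39 and 41 counts. Its log2 ratio was 0.46 with an interval of -0.21 to 1.13, so neither equal levels nor a change as large as that of *Fbn1* is outside it.

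Set beside the other fibulins, *Efemp2* had the highest level. *Efemp2*, which encodes fibulin-4 and is needed to make elastic fibres, had 44.32 FPKM (control) and 44.25 FPKM (*Myl3*-KO) and gave 67.8% and 67.5% of the fibulin FPKM. *Fbln5* gave 31.4% and 31.5%. The ratio of *Fbln5* to *Efemp2* counts, which does not depend on how the libraries are scaled, was 0.809 and 0.849, a log2 change of 0.07 (interval -0.12 to 0.26). *Efemp1*, the gene of fibulin-3, had 0 counts in both libraries and *Fbln7* had 3 and 0. *Hmcn1*, which encodes the very large hemicentin-1, had 47 and 54 counts, and its interval of -0.00 to 1.18 was at the edge of leaving out 0.

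The lysyl oxidases were led by *Lox*, which was slightly lower in *Myl3*-KO. *Lox* (ENSMUSG00000024529, on chromosome 18) had 8837 control and 5651 *Myl3*-KO counts, which is 502 against 419 CPM. Its ratio was 0.836, a log2 ratio of -0.26 (interval -0.31 to -0.21), which is beyond counting error but short of the 1.5-fold limit, and 13.4% of the genes assessed had a lower ratio. After the subtraction for GC content and length it was -0.23 (interval -0.28 to -0.18). *Loxl1* (ENSMUSG00000032334, chromosome 9 from 58287738 to 58313186), the member of the family that keeps elastic fibres renewed in adult tissue, had 399 and 342 counts. Its log2 ratio was 0.16 with an interval of -0.05 to 0.38.

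*Loxl2* (chromosome 14 from 69609068 to 69695834) had 4 and 2 counts, a log2 ratio of -0.61 with an interval of -4.08 to 2.19. Of the 31-base words of its longest transcript, 47.1% also occur in another gene, most of them in *Gm21451*, which is not among the genes of the table analysed here. Whether reads from such stretches were assigned was not tested, and the level of *Loxl2* is uncertain. *Gapdh*, with 31.8% of its words in other genes, had 306 and 133.96 counts.

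Within the family, *Lox* had a smaller share in *Myl3*-KO. *Lox* gave 83.5% of the lysyl oxidase FPKM in the control and 78.6% in *Myl3*-KO, while *Loxl1* went from 4.80% to 6.07%. The ratio of *Loxl1* to *Lox* counts, free of library scaling, was 0.0452 (control) and 0.0605 (*Myl3*-KO), a log2 change of 0.42 (interval 0.21 to 0.64). *Loxl4* and *Loxl3*, other lysyl oxidases added after their values were seen, went the same way against *Lox*, by 0.44 (interval 0.29 to 0.58) and 0.62 (0.35 to 0.88). Of the pairs compared, *Fbn1* against *Lox* differed most, from 0.370 to 0.703 counts for each count of *Lox*, a log2 change of 0.93 (interval 0.84 to 1.01). After the subtraction for GC content and length these changes were smaller, at 0.28 for *Loxl1* (interval 0.06 to 0.49), 0.25 for *Loxl4* (0.10 to 0.39), 0.48 for *Loxl3* (0.22 to 0.74) and 0.72 for *Fbn1* (0.64 to 0.80). These comparisons set reads of the same libraries against each other and have no replicate check either. All of them are taken against *Lox*, itself at a log2 ratio of -0.26, so their shared direction is not separate support. After the subtraction *Loxl1*, *Loxl4* and *Loxl3* themselves had log2 ratios of 0.04, 0.01 and 0.25, with intervals that spanned 0. Among those of the 10 genes with at least 1000 counts, *Fbn1* had the highest ratio and *Lox* the lowest, so their pair was bound to differ most.

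**Figure D2:**
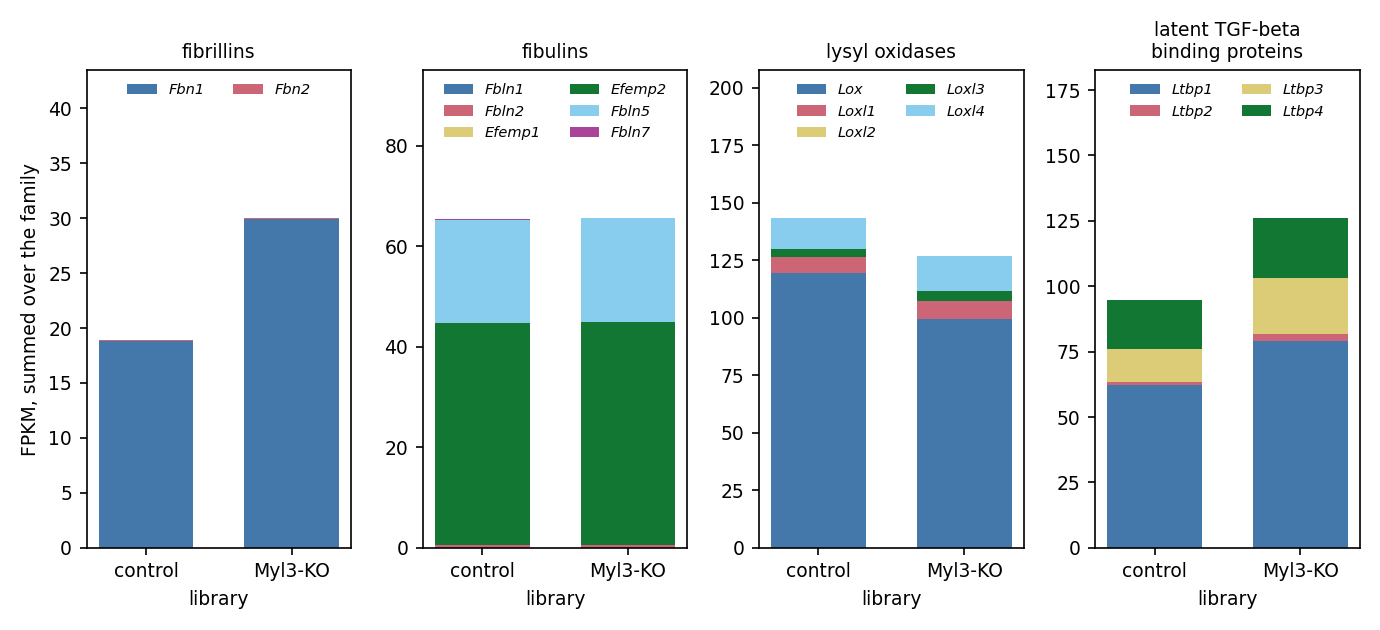
FPKM summed over 4 gene families, as stacked bars for the control and the Myl3-KO library, each colour being 1 gene, with 1 library per bar and no error bars. Fbn1 makes up nearly all of the fibrillin bar and the bar is taller in Myl3-KO (29.97 against 18.90), the fibulin bars are alike (65.55 and 65.40), and the lysyl oxidase bar is shorter in Myl3-KO (126.75 against 143.21).

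*Lox* is known as a low-oxygen response gene, and a list of 13 such genes was set beside it, knowing that genes of this kind were lower in *Myl3*-KO. Of its 12 genes assessed, 3 were called lower, beside 1.12% over all genes assessed, and 0 higher. The median log2 ratio was -0.53, and 10 had an interval wholly below 0, beside 20.1%. *P4ha1*, which encodes a collagen prolyl hydroxylase subunit and was picked after its values were seen, had a log2 ratio of -0.53, and *Lox* was lower by less than this, the change in the ratio of *P4ha1* to *Lox* counts being -0.27 (interval -0.34 to -0.19). The part of low-oxygen response in the level of *Lox* was not tested.

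**Figure D3:**
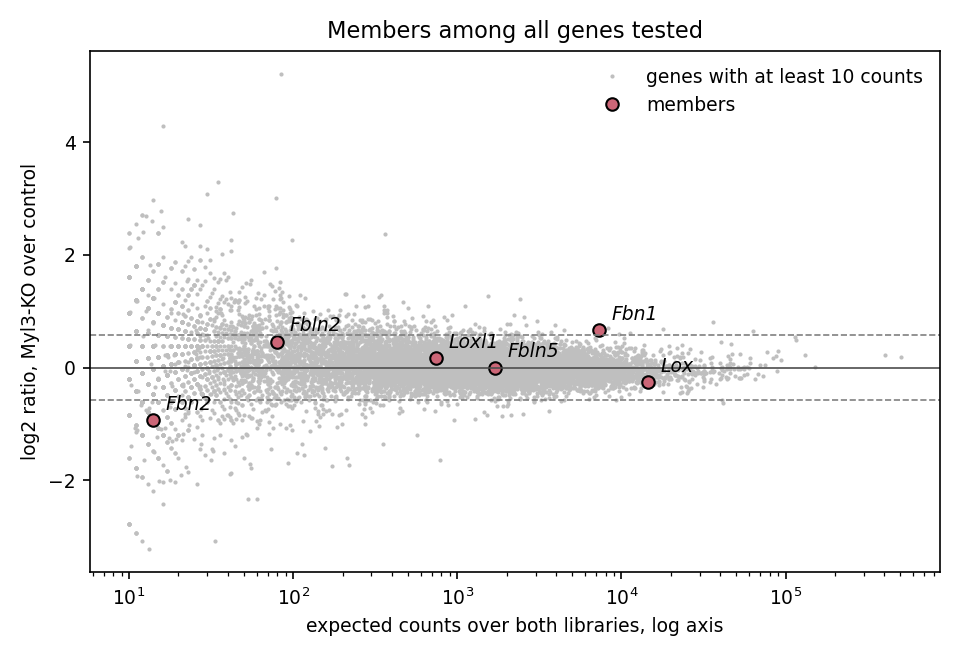
Log2 ratio of Myl3-KO over control against the expected counts over both libraries (log axis), with all genes of at least 10 counts in grey, 6 of the 10 genes in red and dashed lines at 1.5-fold. Fbn1 (log2 ratio 0.67) lies above the upper line at a count where few genes do, Lox (-0.26) lies below 0, and Fbn2 rests on 14 counts.

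Over the 6 genes assessed the median log2 ratio was 0.08, against 0.02 over all genes assessed, with 3 ratios above 0 and 3 below. Of the 6 intervals, 4 spanned 0, among them that of *Fbln5*, whose ratio was -0.00. In sum, the 10 genes took 768 CPM (control) and 798 CPM (*Myl3*-KO), with *Fbn1* above 0 and *Lox* below.

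Other genes of the elastic fibre were looked at in 6 groups, 52 genes in all, of which 38 could be assessed. In *Myl3*-KO 6 of the 38 were called higher and 0 lower, beside 3.64% and 1.12% over all genes assessed. Their median log2 ratio was 0.18, against 0.02 over all genes assessed, and was not corrected for GC content and length. The list was drawn up with results of these data known. By the interval alone 17 were higher and 5 lower, beside 22.2% and 20.1%. Of the 6 called, 4 remained called after the subtraction for GC content and length, namely *Ltbp2*, *Adamtsl2*, *Tgfb1* and *Itgb3*, beside 2.86% called higher over all genes.

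The proteins that sit on fibrillin microfibrils held 3 of these calls, 3 of 12 assessed, beside 3.64% called higher over all genes assessed. *Ltbp2*, which binds fibrillin and *Fbln5*, had 72 control and 137 *Myl3*-KO counts, a log2 ratio of 1.31 (interval 0.89 to 1.75). *Ltbp3*, which helps to secrete latent TGF-beta, had 1150 and 1484 counts, a log2 ratio of 0.75 (interval 0.64 to 0.87), or 0.49 after the subtraction. *Adamtsl2*, whose product binds fibrillin-1, had only 8 and 23 counts (log2 ratio 1.91, interval 0.70 to 3.28), and it was not assessed where 10 counts were asked of each library.

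Of the 12 genes assessed in this group, 10 had ratios above 0 and 2 below, and 4 intervals spanned 0. Some of the others were higher by less than the limit. *Ltbp1*, the most abundant latent TGF-beta binding protein gene at 62.37 and 79.16 FPKM, had a log2 ratio of 0.34, and *Ltbp4*, which supports elastic fibre assembly, one of 0.27. *Emilin1*, a glycoprotein of the elastin and microfibril interface, had one of 0.28 and *Adamts10*, a protease of microfibrils, one of 0.53. The intervals of these 4 genes left out 0, but all were smaller after the subtraction. *Ltbp1* was then at 0.16, *Ltbp4* at 0.00, *Emilin1* at 0.12 and *Adamts10* at 0.37. Summed over the 4 *Ltbp* genes, the level went from 494 to 653 CPM, without any correction for GC content and length. Against *Ltbp1*, *Fbn1* moved by a log2 change of 0.32 (interval 0.24 to 0.41).

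**Figure D4:**
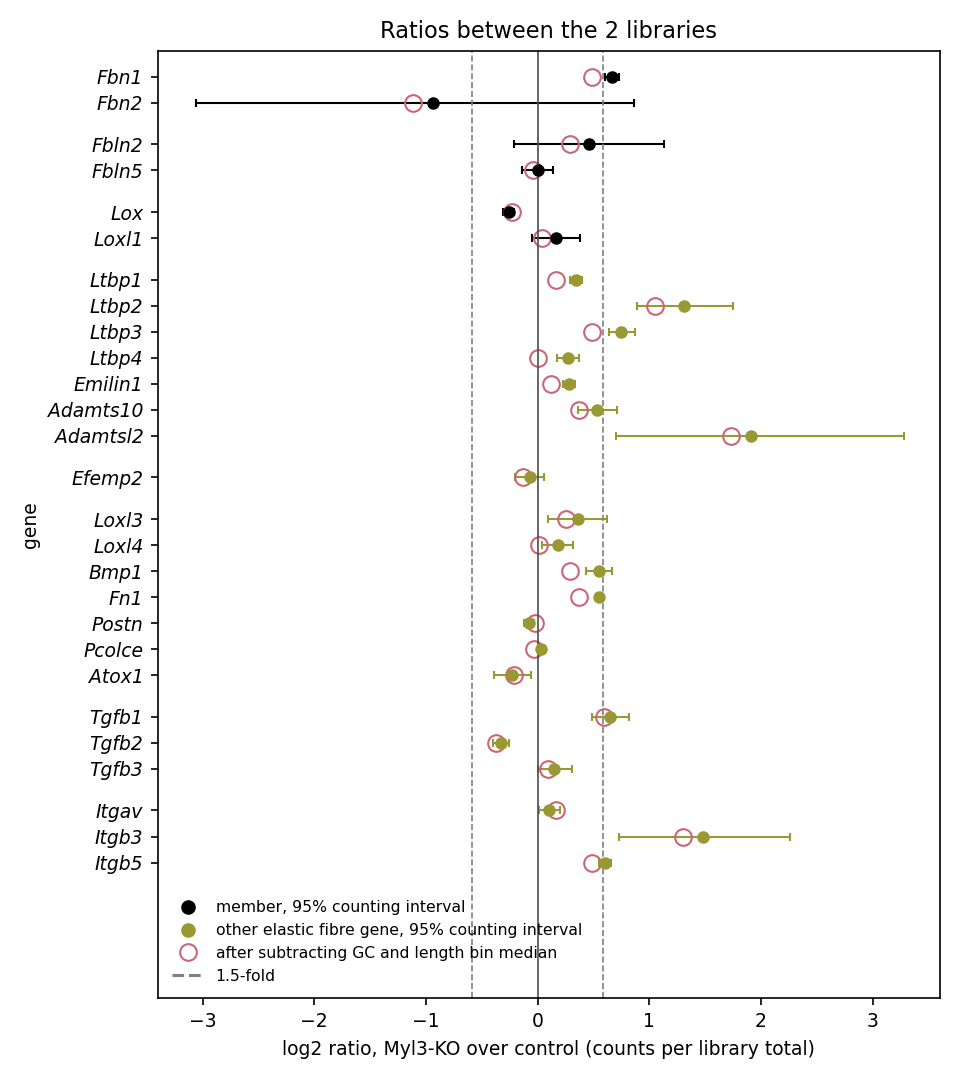
Log2 ratios of Myl3-KO over control for the assessed genes of the 10 (black) and for a selection of other elastic fibre genes (olive), not all of those assessed. Bars are 95% counting intervals, open circles the value after the GC content and length subtraction, and dashed lines lie at 1.5-fold. Fbn1 lies beyond the line as measured (0.67) and within it after the subtraction (0.49), Fbln5 lies at 0, and Lox lies below 0 both ways.

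Genes that activate lysyl oxidases lay on both sides of 0. *Bmp1*, the protease that frees the active enzyme from its propeptide, was added after its values were seen and had 1091 and 1220 counts, a log2 ratio of 0.55 (interval 0.43 to 0.67). *Fn1*, the fibronectin on which *Lox* and fibrillins are assembled, had 53988 and 60449 counts, also 0.55 (interval 0.53 to 0.57). After the subtraction for GC content and length, *Bmp1* was at 0.29 (interval 0.17 to 0.40) and *Fn1* at 0.37 (0.35 to 0.39). *Postn*, a matrix protein that holds *Bmp1*, had a log2 ratio of -0.08 and *Pcolce*, an enhancer of *Bmp1* activity on procollagen, one of 0.03. The 3 copper supply genes had a median of -0.22, with 2 intervals below 0, *Atox1*, the copper chaperone, at -0.23 (interval -0.39 to -0.06). Of the 10 genes assessed in this group, 0 were called. Their intervals lay above 0 for 4 genes and below 0 for 4, beside 22.2% and 20.1% over all genes assessed.

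Of the growth factors that microfibrils hold, *Tgfb1* was called higher and *Tgfb2* was lower by less than the limit. *Tgfb1* had 530 and 638 counts, a log2 ratio of 0.65 (interval 0.49 to 0.82). *Tgfb2*, at 48.90 and 38.12 FPKM the more abundant, had a log2 ratio of -0.33 (interval -0.40 to -0.26). *Tgfb3* and *Bmp4* had intervals that spanned 0, at 0.15 and 0.01. *Gdf5*, a growth factor of joints, had 1 and 1 counts.

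Of 6 cell surface receptor genes, 2 were called higher and 0 lower, beside 3.64% and 1.12% over all genes assessed. *Itgb3* and *Itgb5*, integrin subunits that pair with *Itgav* to bind fibrillin-1 and other matrix proteins, were both called. *Itgb3* had 23 and 49 counts, a log2 ratio of 1.48 (interval 0.73 to 2.26), and *Itgb5* had 5218 and 6071 counts, a ratio of 0.60 (interval 0.55 to 0.66) that was 0.49 after the subtraction and was also not called with TMM or DESeq2 scaling. *Itgav* had a log2 ratio of 0.10 (interval 0.01 to 0.20). The elastin receptor complex, made of products of *Glb1*, *Neu1* and *Ctsa*, had log2 ratios of 0.15, 0.27 and 0.12, of which *Ctsa* alone had an interval above 0, lost after the subtraction (0.01, interval -0.06 to 0.08).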

How the data were processed

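The authors deposited expected counts (estimated reads per gene, without normalization) and FPKM values (rounded to 2 decimals) for 22156 genes. Aligner, counting tool and strand are not given in the sources used here, and the submitters' processing notes name GRCm38 and mm10. The columns are headed NC and KO, and NC was read as the control. The paper describes oligo-bead mRNA, the labels a SMARTER kit.

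Counts were divided by the library total. A count under 1 was raised to the floor of 3 where the other library had counts, and intervals used rounded counts. No count model was fitted, since single libraries leave no residual degrees of freedom. edgeR 4.0.16 (TMM) and DESeq2 1.42.0 gave alternative scalings. The interval script was tested on simulated counts with counting error only. These hold no spread between cultures, so the test checks the script and not the intervals for these data. GENCODE M21 (GRCm38) gave coordinates and, from its longest transcripts, GC content and length, binned by 5 and 4 over 10397 genes with at least 100 counts. Intervals of ratios between genes are normal approximations. Named beside the 10 genes are all called genes of 6 groups and up to 4 others of each with the highest FPKM, and exceptions are marked. The genes, lists and limits were chosen with earlier results of these data known. Python 3.11.15, scipy 1.17.1 and R 4.3.3 were used.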

Additional observations from a re-analysis of the deposited data

How the results depend on the processing

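With 1 library per genotype no alternative replaces a replicate. *Fbn1* was the only gene called among the 10. The count went from 1 to 0 with a limit of 2-fold or 4-fold, with an assumed coefficient of variation between cultures of 0.2 or 0.4 per library, and with the GC content and length subtraction, chosen after seeing the data. It stayed at 1 with TMM or DESeq2 scaling, the FPKM ratio, 1 count added, either filter on low counts, a looser limit (log2 ratio 0.32), or a coefficient of 0.1. No gene of the 10 was called lower under any of these. Of the other elastic fibre genes, 6 were called higher, beside 3.64% over all genes assessed. This became 12 at the looser limit (beside 9.47%), 3 at 2-fold (1.38%), 0 at 4-fold (0.274%) and 4 with the subtraction (2.86%). It was 3 with a coefficient of 0.2 and 0 with 0.4. It was 5 with TMM or DESeq2 scaling (without *Itgb5*) and with 10 counts in each library (without *Adamtsl2*). For the coefficients, scalings and filter no share over all genes is given. None was called lower except 2 at the looser limit, beside 5.44% over all genes assessed. The median log2 ratio was 0.05 to 0.16 with the other scalings and filters and 0.00 with the subtraction. Of 40 alternative ratios of single genes, 39 stayed within their counting interval and 1, *Fbn1* after the subtraction (0.49), did not. No paired analysis was possible because each genotype has 1 library.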

Other observations

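Of 8 proteases that cut elastin, 4 passed the count minimum and 0 were called, beside 3.64% higher and 1.12% lower over all genes assessed. All 4 intervals spanned 0. *Ctsl*, a lysosomal protease, was the most abundant at 108.42 FPKM (control) and 99.80 FPKM (*Myl3*-KO). Its counts went slightly the other way, at a log2 ratio of 0.04 (interval -0.04 to 0.13). *Mmp2* had 565 and 408 counts, *Mmp9* 33 and 35, and *Ctsk* 10 and 10. Over 8 assessed of 9 TGF-beta response genes the median log2 ratio was 0.13, with 0 called. Their intervals lay above 0 for 4 genes and below 0 for 1, beside 22.2% and 20.1% over all genes assessed.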
